A study of Mus musculus with 10 samples.

Results

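The 9 core basement membrane genes Lama1, Lama5, Lamb1, Lamc1, Col4a1, Col4a2, Nid1, Nid2 and Hspg2 were followed across all 8 mRNA libraries and both ChIP libraries of a study of the chromatin ATPase Pontin in mouse embryonic stem (ES) cells. They were chosen by symbol, as the major laminin chains of the early embryo, the ubiquitous collagen IV chains, both nidogens and perlecan, out of 22713 gene IDs. All 9 were matched to an Ensembl ID in both expression tables, and all 9 had more than 1 CPM (reads of a gene scaled to the size of its library) in at least 1 library of each table.

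Pontinf/f; CreER ES cells, derived from blastocysts of floxed mice, carry a Cre recombinase that OHT (a tamoxifen derivative) activates to delete the floxed Pontin alleles. They were sampled on day 0, before deletion (WT), and on day 3 (OHT 3D) and day 4 (OHT 4D) of OHT, with 1 library each, so that WT carries the same floxed alleles and CreER as the treated cells. ZHBTc4 ES cells, in which Oct4 comes from a transgene that tetracycline (Tc) switches off, gave 1 library at 2 days of Tc (Tc 2D). ZHBTc4 cells infected with pLKO control lentivirus gave 2 libraries and those infected with pLKO-shlinc1253, against the long non-coding RNA linc1253, another 2, both at 4 days post infection. Chromatin of ZHBTc4 cells was precipitated with an antibody against Pontin or, as the control, against GFP, with 1 library each. The OHT 3D, OHT 4D and Tc 2D comparisons share the 1 WT library, Tc 2D and WT are different cell lines, and the shRNA libraries were normalized in a table of their own.

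A basement membrane is a thin sheet of extracellular matrix on which epithelia rest. Laminin trimers of an α, a β and a γ chain polymerize on the cell surface, collagen IV trimers form a second, covalently linked network, and nidogens and the heparan sulfate proteoglycan perlecan connect the networks. In the mouse blastocyst, primitive endoderm and trophectoderm secrete these proteins, and the epiblast polarizes on the sheet that the endoderm lays down, so the genes are much studied where ES cells leave the undifferentiated state. Feeder fibroblasts, on which ES cells are often grown, produce collagen IV and laminins as well.

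Each mRNA library held between 17187595 and 37951742 reads on genes, and a basement membrane gene had from 400 to 28761 of them in a library. Ruvbl1, which encodes Pontin, was at 198 CPM in WT, 33.3 in OHT 3D and 50.9 in OHT 4D, and at 85.0 in Tc 2D. Pou5f1, which encodes Oct4, was at 301 CPM in WT and 21.1 in Tc 2D. Both genes follow the labels in the libraries named for their depletion, and Ruvbl1 was below WT in Tc 2D as well. In the pLKO control libraries of ZHBTc4 cells, normalized separately, Ruvbl1 was at 166 and 186 CPM. The study itself reports that Oct4 depletion did not significantly change Pontin mRNA or protein, measured by RT-PCR and immunoblot. The linc1253 transcript was not analysed here.

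Col4a1 and Col4a2 lie head to head. In NCBIM37, Col4a1 (ENSMUSG00000031502, minus strand) spans chr8:11198423-11312826 and Col4a2 (ENSMUSG00000031503, plus strand) spans chr8:11312805-11449287, so that the annotated first exons share 22 bases. The 30 bases around this shared start, chr8:11312801-11312830, are shown on the plus strand because the expression of both genes is described as a pair below, with the shared bases in capitals.
Col4a1/Col4a2 start: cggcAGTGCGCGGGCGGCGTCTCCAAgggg
The shared bases are 0.323% of the Col4a1 exon sequence and 0.332% of that of Col4a2. The library kit does not mark strand, and this overlap is too short to carry the levels of either gene.

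The upstream sequences of the basement membrane genes were rich in G and C. Over the 300 bases from 250 before to 50 after the start site, read from NCBIM37, the GC content of the 9 promoters ran from 60.7% (Nid2) to 75.3% (Lamc1), beside a median of 55.0% over 22380 protein-coding promoters. The letters GGGCGG, the core of a GC box, stood on either strand in 9 of 9 promoters and in 43.4% of all promoters. The windows of Col4a1 and Col4a2 overlap, and the copy within the shared bases shown above counts for both. Lamc1 held 6 copies and Hspg2 held 5, while Lama1, Col4a1, Nid1 and Nid2 held 1 each. 4 other sets of letters were searched on both strands, the GATA motif AGATAA (10.4% of all promoters), the SOX motif ATTGTT (10.1%), the AP-1 motif TGACTCA (4.41%) and the octamer ATGCAAAT (1.72%), and none was in a window of the 9 genes. Shown are the 250 bases upstream of Hspg2 (chr4:137024384-137024633, plus strand) and Lama5 (chr2:179960565-179960814, minus strand), whose levels moved together, and of Nid2 (chr14:20570229-20570478, plus strand), which lay below WT at OHT 3D, where the other two lay above it, with GC box letters of either strand in capitals.
Hspg2: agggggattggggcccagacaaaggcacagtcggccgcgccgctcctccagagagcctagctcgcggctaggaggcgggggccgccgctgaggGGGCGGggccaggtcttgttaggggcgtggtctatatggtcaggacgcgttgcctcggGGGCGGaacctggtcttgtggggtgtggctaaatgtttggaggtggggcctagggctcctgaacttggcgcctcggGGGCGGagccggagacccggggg
Lama5: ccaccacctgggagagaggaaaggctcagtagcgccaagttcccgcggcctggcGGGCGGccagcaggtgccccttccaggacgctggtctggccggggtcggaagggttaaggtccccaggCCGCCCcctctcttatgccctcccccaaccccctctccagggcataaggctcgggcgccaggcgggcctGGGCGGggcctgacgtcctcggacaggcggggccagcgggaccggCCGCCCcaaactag
Nid2: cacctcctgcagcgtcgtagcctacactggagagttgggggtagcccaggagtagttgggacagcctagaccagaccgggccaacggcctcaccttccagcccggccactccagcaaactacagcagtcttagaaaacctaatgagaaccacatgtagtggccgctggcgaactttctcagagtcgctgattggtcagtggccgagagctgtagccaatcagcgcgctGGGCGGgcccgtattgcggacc
In these stretches Hspg2 had 3, Lama5 had 4 and Nid2 had 1 copy of the GC box letters.

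Per kilobase of merged exon sequence, which allows levels to be compared between genes, Lamc1 was the most abundant of the 9 genes in WT and Col4a2 the least. The level was 41.0 CPM per kb for Lamc1, 35.1 for Nid2, 22.3 for Hspg2, 22.2 for Lama5 and 19.5 for Nid1. Lower levels were found for Lamb1 (15.2), Col4a1 (4.88), Lama1 (4.88) and Col4a2 (2.70). With its longest transcript in place of merged exons Lamb1 was at 26.0 CPM per kb in WT, behind only Lamc1 and Nid2. Laminin γ1 was thus far above either α chain, and collagen IV was near the bottom of the order. In the pLKO control libraries of ZHBTc4 cells the order was Lamc1 (85.0 ± 0.158 CPM per kb, SD, n = 2), Nid2 (71.4 ± 10.9), Nid1 (32.8 ± 0.298), Hspg2 (21.6 ± 1.04), Lama5 (17.2 ± 2.23), Lamb1 (12.7 ± 2.42), Lama1 (10.3 ± 0.495), Col4a1 (8.15 ± 0.754) and Col4a2 (3.61 ± 0.269). The values of the control libraries did not overlap between any neighbours in that order, but with its longest transcript Lamb1 was at 21.8 ± 4.15 CPM per kb, overlapping Hspg2.

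The cell lines differed before any depletion. With all 8 libraries on 1 median-ratio scale, the pLKO control libraries of ZHBTc4 cells lay above WT for Lama1 (0.92 on the log2 scale), Lamc1 (0.90), Nid2 (0.87), Nid1 (0.60), Col4a1 (0.58) and Col4a2 (0.26). They lay below WT for Lama5 (-0.52), Lamb1 (-0.42) and Hspg2 (-0.19). Cell line, lentiviral infection and sequencing run cannot be told apart in these values, which is why Tc 2D is set against both controls below.

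**Figure D1:**
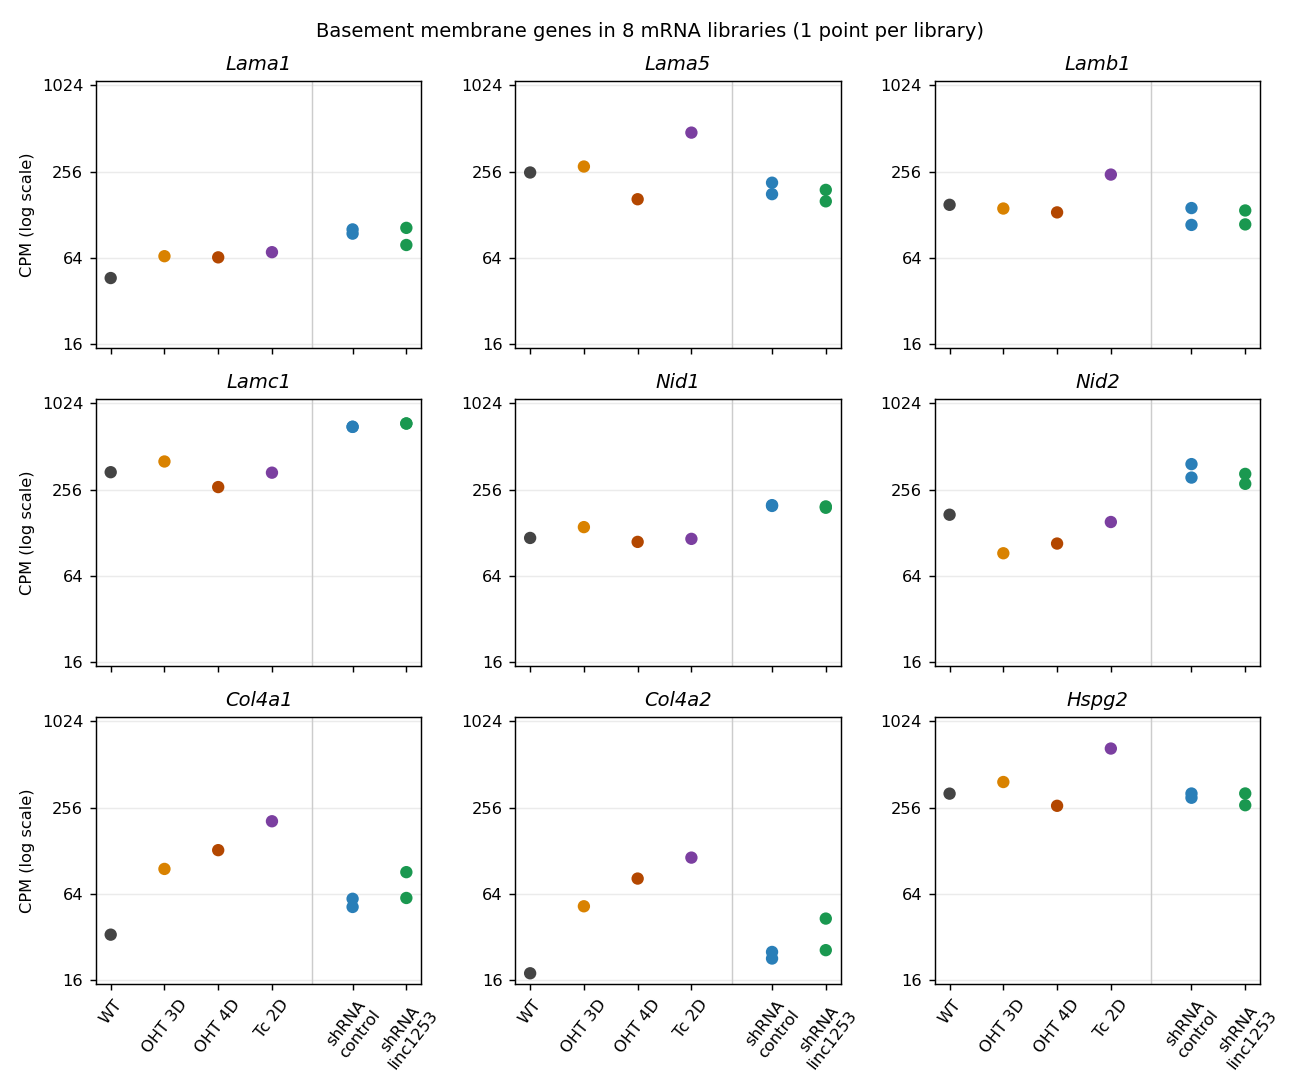
CPM (log scale) of each basement membrane gene in the 8 mRNA libraries, 1 point per library, with the grey line between the separately normalized tables. Col4a1 and Col4a2 were lowest in WT and highest in Tc 2D, Lama5, Lamb1 and Hspg2 were highest in Tc 2D, and Lamc1, Nid1 and Nid2 were highest in the ZHBTc4 shRNA libraries.

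To ask how Pontin depletion bears on the basement membrane, OHT 3D and OHT 4D were set against WT. No library without OHT was made at day 3 or day 4. Loss of Pontin, exposure to OHT with active Cre, and time in culture therefore cannot be told apart. With 1 library per time there is no test. Calls rest on the threshold of the study, a log2-fold-change of CPM plus 1 of more than 0.58 in either direction, and the intervals given are 95% counting intervals, which cover counting error only. In bulk RNA, fewer cells of a type and less RNA per cell cannot be told apart. At OHT 3D, 2 of the 9 genes were called higher and 1 lower, beside 6.01% of 13449 tested genes called higher and 5.88% lower. At OHT 4D, 2 were called higher and 2 lower, beside 6.48% and 8.89%. The median log2-fold-change of the 9 genes was 0.25 at OHT 3D and -0.17 at OHT 4D, beside -0.02 and -0.00326 over all tested genes. Of the 9 genes, 7 lay above WT at the earlier time and 3 at the later.

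Both collagen IV chains, Col4a1 and Col4a2, were higher after OHT. Col4a1 was at 33.3 CPM in WT, 95.6 in OHT 3D and 129 in OHT 4D. Col4a2 was at 17.9, 52.5 and 81.9 CPM. Each chain was thus lowest in WT and highest at OHT 4D. The log2-fold-change of Col4a1 over WT was 1.50 (1.38 to 1.61) at OHT 3D and 1.93 (1.81 to 2.04) at OHT 4D. That of Col4a2 was 1.50 (1.35 to 1.66) and 2.13 (1.99 to 2.28). Among all tested genes these folds lay at percentile 99.3 for both chains at OHT 3D, and at 99.5 (Col4a1) and 99.6 (Col4a2) at OHT 4D. From OHT 3D to OHT 4D, Col4a2 passed the threshold at 0.63 (0.529 to 0.737), with an interval that reached across it. Col4a1 stayed below the threshold at 0.43 (0.351 to 0.511). In that step 1 of the 9 genes was called higher and 2 lower, beside 5.47% and 8.84% of all tested genes. Together both chains made up 3.53% of the summed CPM of the 9 genes in WT, 8.94% in OHT 3D and 16.0% in OHT 4D.

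Markers of other cells moved in the same libraries. Of 30 fibroblast markers, 27 were past the filter, and 25 of these were called higher and 0 lower both at OHT 3D and at OHT 4D, with a median log2-fold-change of 2.19 and 1.95. The matrix glycoprotein Tnc went from 2.55 CPM in WT to 92.0 and 69.4, and Fn1, the fibronectin gene, had the largest fall of the list, at -0.31 and -0.51, short of the threshold. The summed list was at 930.5 CPM in WT, 1375 in OHT 3D and 1440.5 in OHT 4D, with Lum and Fap at 0 in WT and in OHT 3D and no marker at 0 in OHT 4D. Fn1 alone carried most of that sum in WT, at 794 CPM, with Vim at 34.1. Both were left out of a second sum, a choice made after their values were seen. The other 28 markers summed to 103 CPM in WT, 625 in OHT 3D and 750 in OHT 4D. Of 17 primitive endoderm markers, 14 were past the filter, of which 7 were called higher and 1 lower at OHT 3D and 11 higher and 0 lower at OHT 4D, with medians of 0.56 and 1.06. Among markers of that list with a mean of at least 5 CPM over the 4 libraries, the endocytic adaptor Dab2 had the largest rise, 1.05 and 1.85, and the megalin gene Lrp2 the largest fall, -0.39 and -0.43. Below that level Thbd rose by more, at 2.41 and 2.34, as did Gata6 at OHT 4D (2.13), and the marker called lower at OHT 3D was Hnf4a (-0.71, from 1.07 to 0.27 CPM). The list summed to 47.7 CPM in WT, 62.3 in OHT 3D and 89.1 in OHT 4D, with Afp at 0 in all 3 libraries. The study grew its ES cells either on mouse embryonic fibroblast feeders or without feeders, and does not say which applied to a library. The part of fibroblast or endoderm RNA in the collagen IV levels was not tested.

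No laminin chain among the core basement membrane genes was called higher after OHT. Lama1, the α1 chain (chr17:68046605-68171985, plus strand), was at 46.4 CPM in WT, 65.9 in OHT 3D and 64.7 in OHT 4D, log2-fold-changes of 0.50 and 0.47 that stayed under the threshold. Lama5, the α5 chain (chr2:179911078-179960564, minus strand), was at 253 CPM in WT, 278 in OHT 3D and 165 in OHT 4D. Its log2-fold-change was 0.14 (0.086 to 0.190) at OHT 3D and -0.62 (-0.676 to -0.558) at OHT 4D, where it was called lower with an interval that reached across the threshold. The order of the time points was therefore not the same for both α chains.

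Lamb1 and Lamc1 encode the β1 and γ1 chains that pair with either α chain. Lamb1 (chr12:31950099-32014509, plus strand) was at 151 CPM in WT, 142 in OHT 3D and 133 in OHT 4D, and was not called. Lamc1 (chr1:155066052-155179916, minus strand) was at 339 CPM in WT, 403 in OHT 3D and 267 in OHT 4D, and was not called against WT either. Between OHT 3D and OHT 4D, Lamc1 was called lower at -0.59 (-0.638 to -0.544) and Lama5 at -0.75 (-0.813 to -0.697).

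The linker genes split. Nid1 (chr13:13529869-13604542, plus strand) was at 118 CPM in WT, 140.3 in OHT 3D and 111 in OHT 4D. Nid2 (chr14:20570479-20631009, plus strand) was at 171 CPM in WT, 92.2 in OHT 3D and 108 in OHT 4D. Nid2 was called lower at both times, with log2-fold-changes of -0.89 (-0.963 to -0.809) and -0.66 (-0.736 to -0.591), while Nid1, at 0.25 and -0.09, was not called. Of the exon bases of Nid2, 386 (7.90%) overlap the gene 2700060E02Rik on the other strand, whose reads cannot be told apart there. Hspg2, the perlecan gene (chr4:137024634-137126545, plus strand), was at 321 CPM in WT, 387 in OHT 3D and 264 in OHT 4D, and was not called at 0.27 and -0.28.

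**Figure D2:**
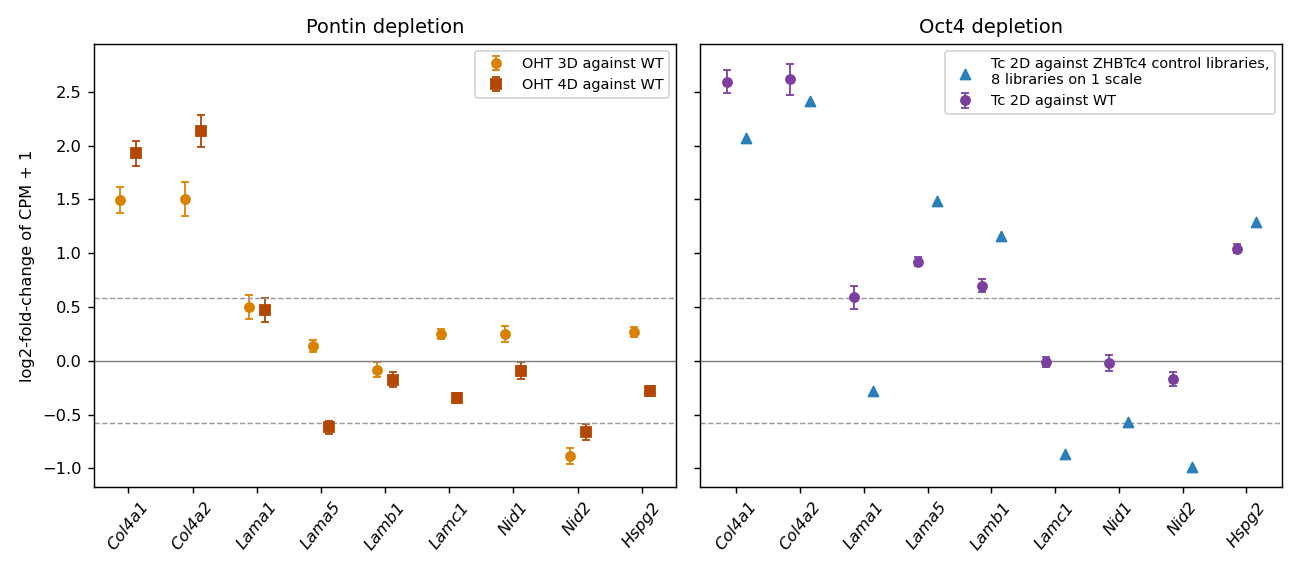
Log2-fold-change of CPM plus 1 of each basement membrane gene after Pontin depletion (left) and Oct4 depletion (right). Bars are 95% counting intervals around 1 library against 1, triangles have no interval, dashed lines mark 0.58 in either direction, and Col4a1 and Col4a2 stand above the other 7 genes in both panels.

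Oct4 depletion was examined in the same way. At Tc 2D against WT, the control the study used, 6 of the 9 genes were called higher and 0 lower, beside 23.9% of 13449 tested genes called higher and 25.8% lower. The median log2-fold-change of the 9 genes was 0.70, beside -0.06 over all tested genes. This background is far larger than after OHT, so single calls carry less weight here. Depletion and cell line cannot be told apart in this comparison, because WT is a Pontinf/f; CreER library.

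Col4a1 reached 206 CPM and Col4a2 115 CPM in Tc 2D, log2-fold-changes over WT of 2.59 (2.49 to 2.70) and 2.62 (2.47 to 2.76). These were the highest levels of either chain in any of the 8 libraries, and both folds lay at percentile 99.1 of all tested genes. Hspg2 was at 662 CPM in Tc 2D, 1.04 above WT on the log2 scale. Lama5 was at 480.2 CPM, 0.92 above WT, and Lamb1 at 245 CPM, 0.70 above WT. Perlecan, laminin α5 and laminin β1 were thus also at their highest in this library. Lama1 was at 70.3 CPM and just past the threshold at 0.59, with a counting interval of 0.483 to 0.695 that spans it. Lamc1, at 337 CPM, Nid1, at 116 CPM, and Nid2, at 152 CPM, were not called, with log2-fold-changes of -0.01, -0.02 and -0.17.

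Tc 2D was also set against the 2 pLKO control libraries of ZHBTc4 cells, the same cell line in a separately normalized table. These controls also differ from Tc 2D in lentiviral infection, day of sampling and sequencing instrument. None of these can be told apart from Oct4 depletion in this comparison. With CPM as deposited, 5 genes were called higher and 3 lower, beside 17.1% of 12872 genes called higher and 29.8% lower, and the median of all genes lay at -0.17. With all 8 libraries on 1 median-ratio scale, which brought that median to 0.01, 5 were called higher and 2 lower, beside 23.7% and 22.9%. On this scale Col4a1 was 2.07 and Col4a2 2.42 above the controls. Lama5 was 1.49 above them, Hspg2 1.29 and Lamb1 1.16. Lamc1 was lower at -0.86 and Nid2 at -0.98, while Nid1, at -0.57, was called lower only with CPM as deposited, at -0.77. Each of these genes lay on the same side of both control libraries. Lama1 turned from 0.59 above WT to -0.28 against the ZHBTc4 controls (-0.47 with CPM as deposited), since its control level was 98.0 ± 4.72 CPM (SD, n = 2). The 5 genes above the threshold against either control were Col4a1, Col4a2, Lama5, Lamb1 and Hspg2.

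Of the 30 fibroblast markers, 19 were lowest and 1 was highest in Tc 2D among the 4 libraries of its table, while OHT 3D and OHT 4D held the highest value of 8 and 20 markers and the lowest of 0. Acta2, Postn, Dcn, Lum and S100a4 were at 0 in Tc 2D, and Col1a2 and Tnc were at 0.35 CPM, but Dcn and Lum were below 1 CPM in every library. Other markers of the list were well above 0 in Tc 2D, with Vim at 120.5 CPM, Pdgfrb at 25.1, Col5a1 at 17.1 and Fbn1 at 7.58. Of the 27 fibroblast markers past the filter, 5 were called higher and 11 lower, with a median of -0.34, and the 28 markers without Fn1 and Vim summed to 89.8 CPM, below WT. The largest rise of the list was that of the receptor gene Pdgfrb, at 3.93, and the largest fall that of Acta2, at -2.79. Among the 8 libraries Tc 2D thus had the highest collagen IV level and the lowest sum of these 28 fibroblast markers. Its rank below WT depends on which markers are left out, since Vim was at 34.1 CPM in WT and 120.5 in Tc 2D. With only Fn1 left out, the markers summed to more in Tc 2D than in WT. Over all 30 markers Tc 2D was lowest, at 726 CPM against 930.5 in WT, with Fn1 at 515 against 794. Tc 2D also had the highest sums of primitive endoderm markers (230.4 CPM, against 47.7 in WT) and trophectoderm markers (665 CPM, against 306 in WT). Lrp2 alone made up 176 CPM of that primitive endoderm sum. Without it, a choice made after its values were seen, the other 16 markers summed to 20.7 CPM in WT, 42.0 in OHT 3D, 69.3 in OHT 4D and 54.9 in Tc 2D, so that OHT 4D was highest. Of the primitive endoderm markers, 5 were called higher and 1 lower (median 0.11). Among those with a mean of at least 5 CPM, Lrp2 had the largest rise at 2.66 and Gata4 the largest fall at -0.12, while of the less expressed markers Plat was at 3.18 and Cubn, the marker called lower, at -1.02. Of 15 trophectoderm markers past the filter, 12 were called higher and 1 lower (median 2.40), with Hand1 at 5.63 and Tfap2c at -1.16. The same list had 7 called higher and 2 lower at OHT 3D, with Hand1 at 1.68 and Tfap2c at -0.75, and 9 higher and 1 lower at OHT 4D, with the keratin gene Krt8 at 2.90 and Tfap2c at -0.59. Of 20 pluripotency markers, 1 was called higher and 18 lower at Tc 2D (median -2.53), with Tbx3 at 1.28 and Tdgf1 at -6.27, beside 0 higher and 1 lower at OHT 3D (Dppa3, -1.005) and 1 of each at OHT 4D (Tbx3, 0.97, and Fgf4, -0.62). The share of any of these cell types in the basement membrane values was not tested.

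**Figure D3:**
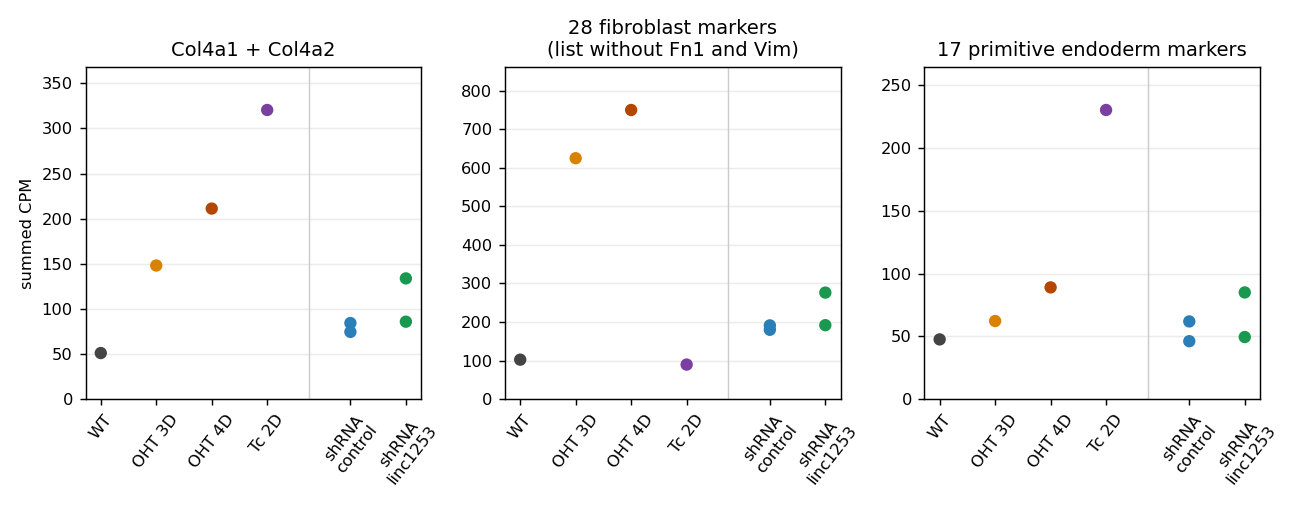
Summed CPM of Col4a1 and Col4a2 (left), of 28 fibroblast markers (middle) and of 17 primitive endoderm markers (right) in the 8 mRNA libraries, 1 point per library. The middle panel leaves out Fn1 and Vim, a choice made after their values were seen. Vim was at 34.1 CPM in WT and 120.5 in Tc 2D, and with only Fn1 left out Tc 2D lies above WT. OHT 3D and OHT 4D were high in both collagen IV and these fibroblast markers. Tc 2D had the highest collagen IV sum (320.5 CPM), the lowest fibroblast sum (89.8 CPM) and the highest primitive endoderm sum (230.4 CPM), most of it Lrp2 (176 CPM). Without Lrp2 the endoderm sum was 69.3 CPM in OHT 4D and 54.9 in Tc 2D. All 30 fibroblast markers summed to 1375 CPM in OHT 3D, 1440.5 in OHT 4D, 1206 and 1242 in the pLKO controls and 726 in Tc 2D.

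Knockdown of linc1253 was tested with limma on log2 of CPM plus 1 over 13407 genes, with 2 libraries per group. None of the 9 genes was called higher (0% of all genes called) or lower (0% of all genes called) at a Benjamini-Hochberg adjusted p of 0.05. Over all genes limma called 0 higher and 0 lower, with 496 higher and 503 lower at an unadjusted p under 0.05. The quasi-likelihood test of edgeR called 0 and DESeq2 called 22 higher and 28 lower, none of them among the 9 genes. Of the 9 genes, 0 passed an unadjusted 0.05 in limma. Nothing in the labels says that the libraries came from separate cultures, so these p-values measure only the spread between these libraries, which may be technical.

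Collagen IV showed the largest differences of the 9 genes in this comparison as well, but they came from 1 library. Col4a1 was at 59.2 and 51.9 CPM in the control libraries and at 60.0 and 90.8 CPM in the knockdown libraries. Col4a2 was at 25.2 and 22.7 CPM in the controls and at 25.9 and 43.1 CPM after knockdown. Knockdown replicate 1 lay within 1 CPM of control replicate 1 for both chains, and knockdown replicate 2 stood above the other 3 libraries. The log2-fold-changes were 0.41 (SE 0.196, limma adjusted p = 0.707) for Col4a1 and 0.47 (SE 0.228, limma adjusted p = 0.707) for Col4a2. Without knockdown replicate 2 both fell to 0.11, and without knockdown replicate 1 they were 0.70 and 0.82 (limma adjusted p of 0.247 and 0.198), where the lone knockdown library is assumed to vary like the controls. Of the 30 fibroblast markers, 17 were highest and 4 lowest in that library among the 4 shRNA libraries, the latter including Thy1 and Pdgfrb. Acta2 was at 17.7 CPM there and at 0.28, 3.31 and 0.18 in control replicate 1, control replicate 2 and knockdown replicate 1, and Tnc was at 13.5, 0.09, 2.97 and 0.03 in the same order. All 30 summed to 1206 and 1242 CPM in the controls and to 1096 and 1232 in the knockdown libraries, so that over the whole list knockdown replicate 2 was not the highest. The 28 fibroblast markers without Fn1 and Vim summed to 191 and 180.0 CPM in the controls and to 192 and 276 in the knockdown libraries, with Fap at 0 in all 4, Dcn at 0 in control replicate 1, Twist2 in control replicate 2 and Lum in knockdown replicate 2. The 17 primitive endoderm markers summed to 46.2 and 62.0 CPM and to 49.5 and 85.1 CPM. Their part in the collagen IV values was not tested.

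The other 7 genes had smaller differences, between -0.19 and 0.08 on the log2 scale. Lamc1 was at 703 and 704 CPM in the controls and 741 and 742 CPM after knockdown, a log2-fold-change of 0.08 (SE 0.084, limma adjusted p = 0.867). Nid2 was at 386 and 311 CPM in the controls and at 330.04 and 281 CPM after knockdown, -0.19 (SE 0.136, limma adjusted p = 0.787). Lama5 was at 179 and 215 CPM against 159 and 191 CPM, -0.17 (SE 0.133, limma adjusted p = 0.805). For Nid2 and Lama5 the knockdown and control libraries overlapped. Lama1 was at 94.7 and 101 CPM against 78.9 and 104, Lamb1 at 109 and 143 against 109.9 and 137, Hspg2 at 300.1 and 321 against 266 and 322, and Nid1 at 199.8 and 197 against 196 and 192 CPM. The groups did not overlap for 3 of the 9 genes that were higher (Lamc1, Col4a1 and Col4a2), beside 18.8% of all tested genes, and for 1 that was lower (Nid1, at -0.04 on the log2 scale), beside 19.2%.

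Because a ratio within a library does not depend on the scaling between libraries, chains of one complex were also compared within each library, per kilobase of exon. Collagen IV assembles mainly as trimers with more α1 than α2 chains, and the Col4a1 to Col4a2 ratio was 1.81 in WT, 1.77 in OHT 3D, 1.53 in OHT 4D and 1.74 in Tc 2D. In the ZHBTc4 libraries it was 2.25 ± 0.041 (SD, n = 2) for the control and 2.15 ± 0.140 (n = 2) for the knockdown. Both chains thus changed in the same direction over a range in which Col4a1 itself differed between 33.3 and 206 CPM, but not in fixed proportion. The Col4a1 to Col4a2 ratio was lowest in OHT 4D, and in Tc 2D it lay below both ZHBTc4 controls. These are ratios of RNA, and the protein chains were not measured. The ratio of Col4a1 to Lamc1 was 0.119 in WT, 0.288 in OHT 3D, 0.587 in OHT 4D and 0.742 in Tc 2D, and 0.0958 ± 0.0090 (n = 2) in the controls. Relative to laminin γ1, collagen IV was therefore higher in all 3 depleted libraries than in WT or in either control.

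The laminin α chains kept other proportions to γ1. Lama5 to Lamc1 was 0.541 in WT, 0.501 in OHT 3D, 0.447 in OHT 4D and 1.03 in Tc 2D, against 0.203 ± 0.026 (n = 2) in the controls. Lama1 to Lamc1 was 0.119 in WT, 0.142 in OHT 3D, 0.211 in OHT 4D and 0.182 in Tc 2D, against 0.121 ± 0.0056 (n = 2) in the controls. The Lamb1 to Lamc1 ratio was 0.370 in WT, 0.294 in OHT 3D, 0.416 in OHT 4D and 0.606 in Tc 2D, and it depends on the length used for Lamb1, 9917 bases for merged exons or 5784 for the longest transcript. With the longest transcripts it was 0.585, 0.464, 0.657 and 0.958 in the same order. Nid2 to Nid1 was 1.80 in WT, 0.813 in OHT 3D, 1.21 in OHT 4D and 1.62 in Tc 2D, so OHT 3D was the only one of the 8 libraries with less Nid2 than Nid1 per kilobase. Nid1 to Lamc1 was 0.476 in WT, 0.477 in OHT 3D, 0.567 in OHT 4D and 0.472 in Tc 2D.

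**Figure D4:**
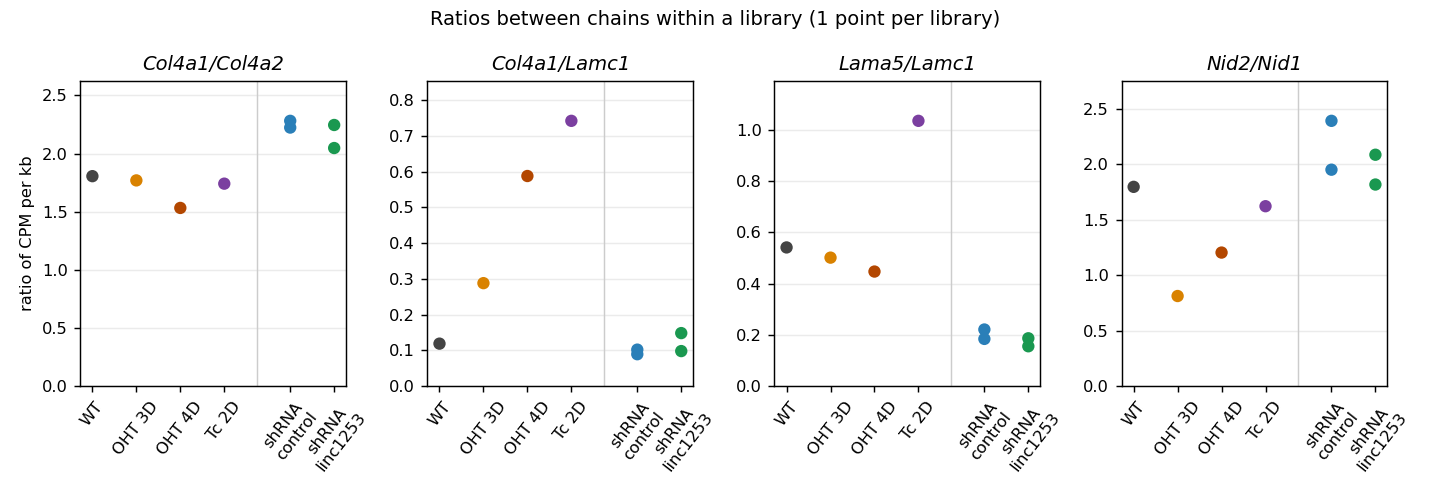
Ratios of CPM per kb within each of the 8 mRNA libraries, 1 point per library, axes from 0. Col4a1/Col4a2 stayed between 1.53 and 2.28, while Col4a1/Lamc1 was 0.119 in WT and 0.742 in Tc 2D, Lama5/Lamc1 was highest in Tc 2D at 1.03, and Nid2/Nid1 was lowest in OHT 3D at 0.813.

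Across all 8 libraries, centred within each table, the profiles of some members were close to each other. As a description over 8 libraries that share depth and scaling, Pearson's r of log2 of CPM plus 1 was 0.996 for Col4a1 with Col4a2, 0.973 for Lama5 with Hspg2, 0.898 for Hspg2 with Lamb1, 0.890 for Lama5 with Lamb1 and 0.843 for Lamc1 with Nid1. Lama1 was nearer to collagen IV (0.82 with Col4a1 and 0.81 with Col4a2) than to the other laminin α chain (0.37 with Lama5). Nid2 had r of -0.51 with Lama1 and -0.41 with Nid1. With the mean of the other 8 members, r was lowest for Nid2 (-0.19), Nid1 (-0.08) and Lamc1 (0.06), so the mean profile does not stand for these, and it lay between 0.65 and 0.83 for the other 6. Outside the 9 genes, those most like the mean profile of the 9 over the 8 libraries were Ikbip (r = 0.997), Cpped1 (0.992), Ahnak (0.991), Rbms1 (0.985), Lrrc57 (0.982), Elf4 (0.980), Daglb (0.976), Id2 (0.975), Sema4b (0.974) and Ggcx (0.974), out of 9957 genes compared. All 10 were highest of the first 4 libraries in Tc 2D, as Ahnak shows with 37.9 CPM in WT, 77.1 in OHT 3D, 57.9 in OHT 4D and 273 in Tc 2D.

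Other genes of the basement membrane, 27 in a list of further laminin, collagen and associated genes, were examined next, with 21 past the filter. OHT 3D had 6 of them called higher and 3 lower (median -0.03), OHT 4D likewise had 6 higher and 3 lower (median -0.01), and Tc 2D had 11 higher and 1 lower (median 0.67). Over all tested genes the shares were 6.01% higher and 5.88% lower at OHT 3D, 6.48% and 8.89% at OHT 4D, and 23.9% and 25.8% at Tc 2D. Among genes with a mean of at least 5 CPM, Tinagl1, a matricellular protein that binds laminin, had the largest rise in each comparison with WT. It was at 2.28 CPM in WT, 8.14 in OHT 3D, 19.8 in OHT 4D and 138.7 in Tc 2D, which is 1.48, 2.66 and 5.41 above WT on the log2 scale. Below that level Col4a5, another collagen IV chain, went from 0.40 CPM in WT to 3.85 in OHT 3D (1.79 on the log2 scale) and 3.64 in OHT 4D (1.73). The laminin gene Lama4, at 0.31 CPM in WT, was called higher at OHT 3D (1.12, 1.85 CPM) and OHT 4D (0.70, 1.14 CPM). Lama2, at 0.18 CPM in WT, was called higher at OHT 3D (1.00, 1.36 CPM). Other laminin genes were called lower, Lamb3 at OHT 3D (-0.67) and Lama3 at OHT 4D (-0.73). Falls were largest for the fibulin gene Fbln1 at OHT 3D (-0.86), for Frem2 of the Fraser complex at OHT 4D (-1.12) and for the laminin α3 gene Lama3 at Tc 2D (-3.19). The kidney-type collagen IV genes Col4a3 and Col4a4 did not pass the filter in these libraries. After linc1253 knockdown 0 of 19 tested genes of this list were called by limma, with a median of 0.03.

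Among 10 receptors for laminin and collagen, 9 were past the filter. OHT 3D had 1 receptor called higher (median 0.24), OHT 4D had 2 (median 0.32), Tc 2D had 4 (median 0.21), and 0 were called lower in each, against the same shares of all tested genes. Itga3, the integrin α3 chain that binds laminin α5, had the largest rise after OHT among receptors with a mean of at least 5 CPM, at 0.50 and 0.80 (61.4 CPM in WT, 87.1 in OHT 3D, 107 in OHT 4D), of which the first is under the threshold. At Tc 2D it was Itga6 among these, the integrin α6 laminin receptor chain, with 188 CPM in WT and 494 in Tc 2D (1.39). Below that level Itga1, at 1.03 CPM in WT, was the receptor called higher at OHT 3D (0.92, 2.85 CPM). Itga1 also had the largest rise of all listed receptors at Tc 2D (2.68, 12.0 CPM). The largest falls, all under the threshold, were Ddr1, a collagen receptor kinase, at OHT 3D (-0.06), the dystroglycan gene Dag1 at OHT 4D (-0.44) and Itgb4, the integrin β4 chain, at Tc 2D (-0.21).

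Collagen folding and modification genes were examined in the same way. Of 13 genes in this list 12 were matched and past the filter, of which OHT 3D had 0 called higher and 1 lower (median -0.08), OHT 4D had 1 higher and 0 lower (median 0.11), and Tc 2D had 4 higher and 3 lower (median 0.23). The shares over all tested genes are those given above, and the counts of this list lie near them. At OHT 3D P4ha1, a collagen prolyl hydroxylase subunit, was lower at -0.80. At OHT 4D the collagen chaperone gene Serpinh1 was higher at 0.73 (77.8 CPM in WT, 75.9 in OHT 3D, 130.1 in OHT 4D), and the lysyl hydroxylase gene Plod2 had the largest fall at -0.57, under the threshold. At Tc 2D Plod1 was higher at 0.83 and Plod2 lower at -0.62. After linc1253 knockdown limma called 0 of the 9 receptor genes tested and 0 of the 11 assembly genes tested, with medians of 0.13 and -0.01. The marker lists had 0 calls in the same test, with medians of 0.40 for 25 fibroblast markers, 0.20 for 11 primitive endoderm markers, -0.13 for 13 trophectoderm markers and 0.02 for 20 pluripotency markers.

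Pontin occupancy was read from the ChIP libraries, of 40729076 (Pontin) and 17185883 (GFP) reads, in a window from 2.5 kb upstream to 500 bases downstream of each start site. The log2 ratio of Pontin over GFP reads, scaled by library size, had a median of 0.34 and lay between -0.80 and 1.43 for 90% of 21178 promoters with reads of both antibodies. The 8 basement membrane genes with such reads had a median of 0.65, from 0.27 to 2.03, and 7 of them lay above the median of all promoters. Only Lamb1 was above a log2 ratio of 1, beside 14.8% of all promoters. In a window of 1 kb to each side of the start Lama5, with 75 Pontin and 5 GFP reads, was above it as well, at 2.66 in place of 0.52, and Lamc1, with 37 and 23, turned from 0.27 to -0.56. The share of all promoters above 1 was not computed for this narrower window, so these values have no background. There is 1 library per antibody, so no test was made.

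Lamb1 had 58 Pontin reads and 6 GFP reads, a log2 ratio of 2.03 at percentile 98.9 of all promoters. Its interval from fragments, 33 against 3, was 0.542 to 4.56 (exact binomial, counting error only). The Pontin count of Lamb1 was below the median promoter, which held 72 Pontin reads and 24 GFP reads, so the ratio stands on a low GFP count. Nid2 had 91 Pontin and 21 GFP reads (0.87), and Hspg2 had 90 and 22 (0.79). Col4a2 had 90 and 23 (0.72), and Col4a1 had 75 and 24 (0.40), in windows that share 980 bases. Lama1 had 99 and 28 (0.58), Lama5 105 and 31 (0.52), and Lamc1 63 and 22 (0.27). The fragment intervals of these 7 promoters in this window all included 0, and the value of Lama5 depended on the window, as given above.

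Nid1 had 0 Pontin and 2 GFP reads in its window, and no ratio was formed. Of the 32-base stretches in that window 88.4% occur elsewhere in NCBIM37 as well, against 0% to 5.39% in the windows of the other 8 genes, and the files hold reads above a mapping quality cut. From 100 kb before to 10 kb after the Nid1 start there were 208 Pontin reads, and from 10 kb to 100 kb after it there were 1467. The window thus says nothing of Pontin at Nid1. Within exons 4.53% of the stretches of Nid1 occur elsewhere, against at most 0.866% in the other members.

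**Figure D5:**
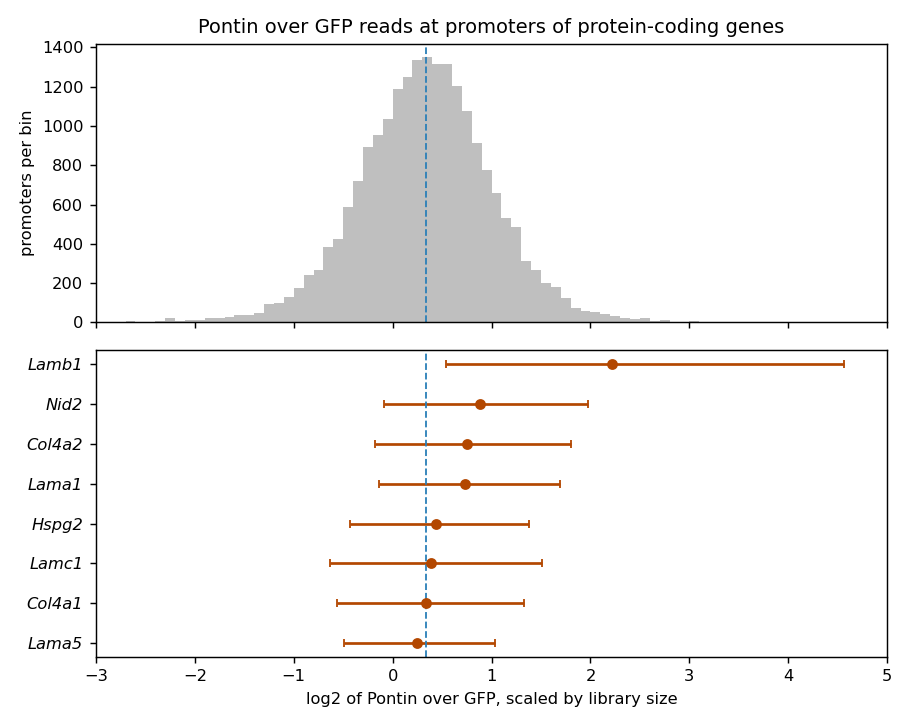
Log2 ratio of Pontin over GFP, scaled by library size: upper panel, read ratios of all promoters in bins of 0.1; lower panel, fragment ratios of 8 basement membrane gene promoters with 95% exact binomial intervals. The dashed line is the median of all promoters (0.34), and the interval of Lamb1 alone lies above 0.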

How the data were processed

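RNA was sequenced from 8 libraries and Pontin and GFP ChIP DNA from 2, each sample being grouped by its GEO labels. The deposited mRNA tables hold CPM: the authors trimmed reads, aligned them with TopHat to NCBIM37, counted them per Ensembl gene with HTSeq and scaled them by TMM in edgeR, separately for 4 and 4 libraries. Whole reads came out for 100% of values within 0.01 of a whole number. CPM columns summed to between 638591 and 1015100. The ChIP reads were aligned with Bowtie2, and the deposited read lists carry the mapping quality as a score, from 6 (Pontin) and 5 (GFP) upwards. No count of the authors' own comparisons was used.

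Genes above 1 CPM in at least 1 library of a table were kept. Folds are on the scale of log2 of CPM plus 1, called at 0.58, and understate low genes. Counting intervals come from the recovered reads. The knockdown was tested with limma 3.58.1 (trend, Benjamini-Hochberg), with edgeR 4.0.16 and DESeq2 1.42.0 on recovered reads as alternatives (R 4.3.3). Gene lengths and start sites are from the GENCODE annotation of NCBIM37, in which 132 of 133 listed symbols were matched to an ID of the tables. Promoter sequences were read from NCBIM37. A ChIP read was counted by its midpoint. Scripts were tested on simulated data. Alternatives were other pseudocounts (0.5 and 3), filters (none and 5 CPM), thresholds, scalings, controls, lengths, windows and libraries left out.

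Named genes were the 9 members, the largest rise and fall of each list among genes with a mean of at least 5 CPM, and the 10 genes most like the members' mean. Other named genes were chosen after their values were seen. Members, lists and tests were chosen with earlier results of these data known. Intervals cover counting error only, since reads were not marked by molecule.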

Additional observations from a re-analysis of the deposited data

Results flagged for a closer look

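Of the 9 genes, 4 lay above WT at OHT 3D and below it at OHT 4D. The log2-fold-changes were 0.14 and -0.62 for Lama5, 0.25 and -0.34 for Lamc1, 0.25 and -0.0905 for Nid1, and 0.27 and -0.28 for Hspg2. Each time is 1 library, both share the WT library, and the difference was not tested. Only the value of Lama5 at OHT 4D passed the threshold of 0.58.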

How the results depend on the processing

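At OHT 3D and OHT 4D against WT, each of the 9 genes kept its direction under both other pseudocounts, both other filters and median-ratio scaling, and the counts of calls did not change. At a threshold of 1, 0 genes were lower at OHT 3D and 0 at OHT 4D, 0 were higher and 0 lower between OHT 3D and OHT 4D, and 3 were higher at Tc 2D. The shares of all tested genes past a threshold of 1 were not computed, so these counts cannot be weighed against them. A pseudocount of 3 left 5 higher at Tc 2D, without Lama1. Against the ZHBTc4 controls, 3 genes were lower at Tc 2D with CPM as deposited and 2 on 1 median-ratio scale, and Lama1 turned to -0.47 and -0.28. With the length of the longest transcript, the Lamb1 to Lamc1 ratio in WT was 0.585. In the ChIP data, a narrower window reached 1 kb to each side of the start. The narrower window left 2 promoters above a log2 ratio of 1, Lamb1 and Lama5 (2.66), a count with no share over all promoters computed beside it. Lamc1 turned from 0.27 to -0.56. At Lama5 the narrower window leaves out the bins centred 1125 and 1375 bases upstream. These held 14 and 6 GFP reads and 11 and 4 Pontin reads. The cause of either change was not tested.

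For the knockdown, edgeR, DESeq2, limma without trend, the other pseudocounts and filters, and leaving out each library called 0 of the 9 genes in either direction. When the replicate number was a block, limma called 2 of the 9 genes higher (Col4a1, adjusted p = 0.0136, and Col4a2, adjusted p = 0.0133) and 2 lower (Lama5, adjusted p = 0.0415, and Nid2, adjusted p = 0.0291), and over all genes 933 higher and 1027 lower. The deviations of same-numbered libraries from their group means had a Pearson r of 0.673 over genes. Same-numbered libraries thus deviated together, but with 2 pairs, and no label that says what a number marks, they were not treated as paired. The mRNA values of the 9 genes rest on at least 400 reads, those of the least expressed list genes on few, and single libraries per condition limit both. At the promoters low read numbers limit every ratio.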
